A study of Homo sapiens with 6 samples.

Results

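TBK1, IRF-3 and IRF-5 were represented on the peptide arrays by 5 of the 300 printed peptides, taken as all peptides that the arrays list under these 3 protein names. They were TBK1 (Q9UHD2) at S172, IRF-3 (Q14653) at S385/6, S396/8 and S402/5, and IRF-5 (Q13568) at S437. The 3 IRF-3 peptides come from 1 protein, and the sites S396/8 and S402/5 lie close together, so these peptides are not independent of each other. The peptide sequences were not used here, and the sites are named as listed on the arrays.

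TBK1 is a serine/threonine kinase that is switched on by phosphorylation of S172 in its activation loop, downstream of sensors of viral nucleic acid and of Toll-like receptors that signal through the adaptor TRIF. Its best known substrate is IRF-3, a transcription factor that rests in the cytosol; phosphorylation of serines in its C-terminal tail lets it pair, enter the nucleus and switch on the interferon-beta gene. IRF-5 is a related factor that in macrophages acts mainly downstream of Toll-like receptors that use the adaptor MyD88 and drives inflammatory cytokine genes, and it too is activated by phosphorylation near its C-terminus.

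Lysates of THP-1, an established human line from a monocytic leukaemia, were put on the arrays, and a fluorescent stain for phosphoproteins (ProQ Diamond) was then used to measure peptide phosphorylation. All cells had been made adherent and macrophage-like with the phorbol ester PMA and rested in fresh medium. They were left unstimulated or received, for 15 min, 20 ng/ml of recombinant human IL-32g (called IL-32) or 20 ng/ml of recombinant human IL-17A/F (called IL-17). Each of the 3 groups had 2 biological replicates with 1 array each, which the series describes as independent experiments, so an error over arrays is that of n = 2. PMA itself acts on protein kinase C, and since every group had received it, no values of cells without it belong to the comparison. A value is the stain signal of a printed peptide after contact with a lysate, read as phosphorylation of that peptide. No array without lysate was among those used, so signal from other sources cannot be told apart. The value does not show that the protein was present or phosphorylated in the cell, and other kinases of the lysate can act on the same peptide.

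Every peptide was printed in 3 spots, and the files give for each of 900 spots the mean intensity and the mean of the local background. The median ratio of foreground to background ran from 1.16 (IL-17, replicate 2) to 1.34 (unstimulated, replicate 2), and between 26.1% and 35.4% of spots were dimmer than their own background. The local background differed between the 3 printing positions of a peptide: its median ran from 6978 to 22914.5 at the first position and from 18587.5 to 30552.5 at the third. Of the 2 non-human peptides on the array, one from E. coli FlgE was above its background in 15 of 18 spots and one from RuBisCO in 0 of 18.

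The TBK1 peptide at S172 was brighter than its local background in all 18 spots. On unstimulated arrays its foreground intensities were 17189, 48197 and 51214 over backgrounds of 7479, 23248 and 28926 in replicate 1, and 15145, 47812 and 41289 over 3759, 27053 and 21805 in replicate 2. On IL-32 arrays they were 20262, 18463 and 52547 over 7396, 8245 and 29891, and 34903, 44538 and 46558 over 19206, 26201 and 25609. On IL-17 arrays they were 13902, 35839 and 39972 over 5630, 17975 and 29412, and 39783, 41359 and 36998 over 25170, 23641 and 22268. The intensities followed the background: where the first spot lay on a dim area its foreground was low too, and its ratio to background was the highest of the 3 spots on all arrays of replicate 1 and on the unstimulated array of replicate 2. That last spot had a ratio of 4.03, while the other 17 lay between 1.36 and 2.74.

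The 3 IRF-3 peptides split into a dark and a pair of bright ones. At S385/6, the pair of serines nearest to the N-terminus, foreground was below local background in 18 of 18 spots, with ratios between 0.341 and 0.777 in unstimulated and stimulated cells alike. This peptide has no fold in any comparison, and in the authors' deposited values it stands at their floor of 0.01 on all 6 arrays. Its darkness is that of a printed peptide under this stain and carries no statement about the site in cells. At S396/8 all 18 spots exceeded background, with ratios between 1.12 and 1.64, and at S402/5 all 18 did, between 1.10 and 1.66. The IRF-5 peptide at S437 also passed its background in 18 of 18 spots, with ratios between 1.24 and 1.93. Levels of different peptides are those of different probes and are not set against each other.

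**Figure D1:**
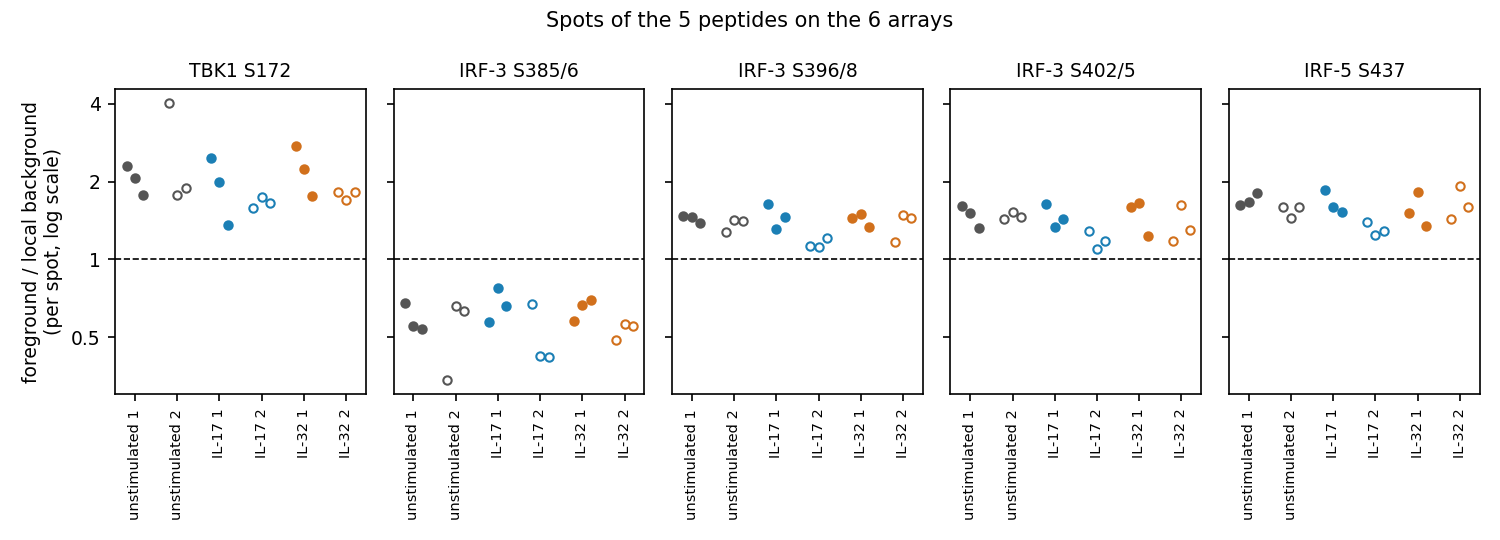
Ratio of foreground to local background (log scale) for each of the 3 spots of the 5 peptides on the 6 arrays, in printing order; filled points are replicate 1, open points replicate 2, and the dashed line marks a ratio of 1. All spots of IRF-3 S385/6 lie under the line and all spots of the other 4 peptides above it, and a single TBK1 spot on the unstimulated array of replicate 2 stands at 4.03.

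For comparison between arrays, intensities were corrected for background with limma's normexp method and quantile-normalized over all spots, and the 3 spots were averaged on the log2 scale. The normalized signal of TBK1 S172 was 12.30 and 12.24 on the unstimulated arrays, 12.23 and 12.56 on the IL-17 arrays and 12.37 and 12.52 on the IL-32 arrays. Both IL-32 arrays lay above both unstimulated arrays, whereas the IL-17 arrays spanned the range of the other groups. Group means were 12.27 ± 0.04 for unstimulated cells, 12.39 ± 0.23 for IL-17 and 12.45 ± 0.11 for IL-32 (SD, n = 2 each), and neighbours in this order did not differ beyond their spread.

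IRF-3 S396/8 gave 11.79 and 11.76 in unstimulated cells, 11.99 and 11.64 with IL-17 and 11.88 and 11.74 with IL-32. The unstimulated arrays lay close together and inside the range of both cytokine groups, whose replicate 1 was high and replicate 2 low. Means were 11.78 ± 0.02, 11.82 ± 0.25 and 11.81 ± 0.09 in the same order (SD, n = 2). IRF-3 S402/5 gave 11.82 and 11.88 in unstimulated cells, 11.95 and 11.73 with IL-17 and 11.88 and 11.74 with IL-32. Here too the groups overlapped, replicate 1 was the higher array of both cytokine groups, and the means of 11.85 ± 0.05, 11.84 ± 0.16 and 11.81 ± 0.10 were not separated.

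IRF-5 S437 gave 12.18 and 12.02 in unstimulated cells, 12.24 and 12.00 with IL-17 and 11.99 and 12.15 with IL-32. All 3 groups overlapped, and replicate 1 was the higher array in unstimulated cells and with IL-17 and the lower one with IL-32. The means were 12.10 ± 0.11, 12.12 ± 0.17 and 12.07 ± 0.11 (SD, n = 2).

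**Figure D2:**
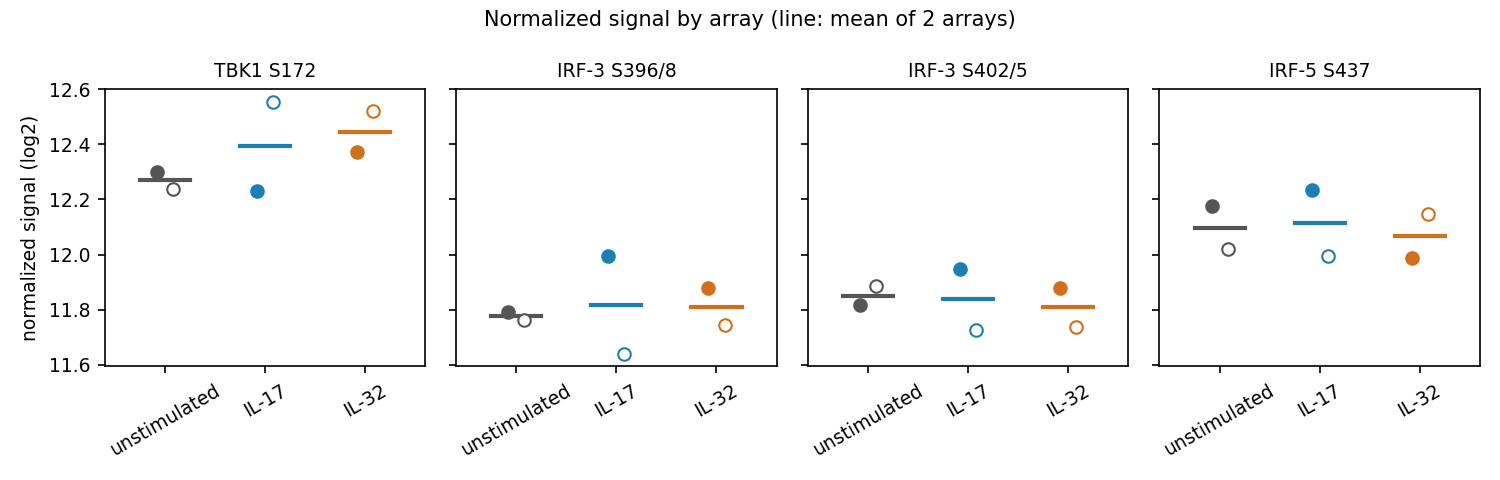
Normalized signal (log2) of the 4 peptides above background, by group; filled points are replicate 1, open points replicate 2, and lines are means of 2 arrays. TBK1 S172 with IL-32 (12.37 and 12.52) is the single cytokine group whose arrays both lie on one side of the unstimulated arrays (12.30 and 12.24).

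The first comparison asked whether IL-32 altered these peptide signals within 15 min. For TBK1 S172, IL-32 minus unstimulated was 0.18 ± 0.13 in log2 units (standard error, n = 2 per group; 95% interval -0.13 to 0.49), with 0.07 between the arrays of replicate 1 and 0.28 between those of replicate 2. It ranked 31 of 298 human peptides by size of difference and did not pass the threshold (limma, adjusted p = 0.996). Of the 298 peptides, 38 (12.8%) had both IL-32 arrays above both unstimulated arrays and 35 (11.7%) had both below, and 1 of the 4 bright peptides of TBK1, IRF-3 and IRF-5 was among the former and 0 among the latter. The other 3 differences were near 0, at 0.03 ± 0.13 for IRF-3 S396/8 (-0.29 to 0.35), -0.04 ± 0.10 for IRF-3 S402/5 (-0.30 to 0.21) and -0.03 ± 0.12 for IRF-5 S437 (-0.32 to 0.26). Arrays of the same replicate number gave opposite signs in these 3 cases: 0.09 and -0.020 for S396/8, 0.06 and -0.15 for S402/5, and -0.19 and 0.13 for IRF-5. Replicate numbers were not taken to pair the arrays, so differences by replicate, here and below, describe that matching only. None of the 4 passed after adjustment, as was the case for 0 of 298 peptides (0%) in limma's test, of which 4 (1.34%) had an unadjusted p under 0.05.

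The second comparison asked the same of IL-17. TBK1 S172 was at 0.12 ± 0.13 (SE, n = 2 per group; 95% interval -0.18 to 0.43), which came from replicate 2: the differences were -0.07 in replicate 1 and 0.32 in replicate 2. IRF-3 S396/8 gave 0.04 ± 0.13 (-0.28 to 0.36), with 0.20 and -0.12, and IRF-3 S402/5 gave -0.01 ± 0.10 (-0.27 to 0.24), with 0.13 and -0.16. Both IRF-3 peptides were thus higher than unstimulated cells in replicate 1 and lower in replicate 2, opposite to TBK1. IRF-5 S437 gave 0.02 ± 0.12 (-0.27 to 0.31), with 0.06 and -0.022. No group of arrays stood apart for any of the 4 peptides, where 24 of 298 (8.05%) stood apart as higher and 27 (9.06%) as lower. The adjusted p was 0.997 for each (limma), and 0 of 298 peptides passed (0%), with 0 at an unadjusted p under 0.05 (0%). The comparisons with unstimulated cells share those 2 arrays.

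Set directly against each other, the cytokines gave differences of IL-32 over IL-17 of 0.05 ± 0.13 for TBK1 S172 (-0.26 to 0.36), -0.0058 ± 0.13 for IRF-3 S396/8 (-0.33 to 0.31), -0.03 ± 0.10 for IRF-3 S402/5 (-0.28 to 0.23) and -0.05 ± 0.12 for IRF-5 S437 (-0.34 to 0.24). Signs differed between replicates 1 and 2 in all 4 cases, and for each peptide the arrays overlapped, against 38 of 298 peptides (12.8%) apart as higher and 28 (9.40%) as lower. None passed (limma, adjusted p = 0.997), and 0 of 298 peptides (0%) did, with 4 (1.34%) at an unadjusted p under 0.05. Over the 3 comparisons, 12 of 12 intervals held 0 and 12 of 12 lay inside a 1.5-fold change in either direction on this scale (log2 0.58), the size that the study set as its criterion together with p under 0.06. By limma's unadjusted p on this scale, no peptide of the 298 met both criteria in any of the comparisons (0% each). The study's text names no test, so its own calls were not repeated here. The normexp correction compresses differences in signal, so the bounds of the intervals hold for the corrected scale, and 2 arrays per group limit the precision.

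**Figure D3:**
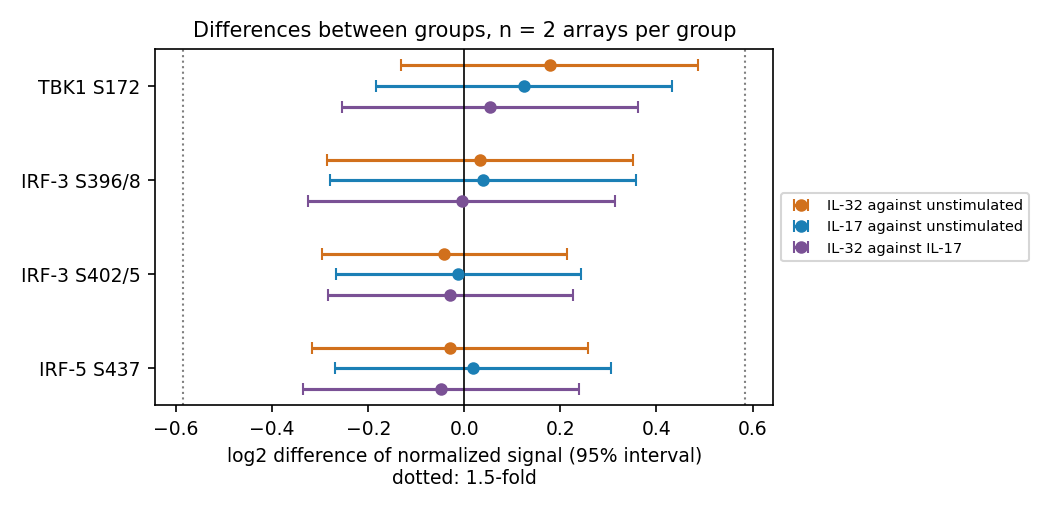
Log2 differences of normalized signal with their 95% intervals for the 3 comparisons (n = 2 arrays per group); dotted lines mark 1.5-fold. Every interval crosses 0, and the highest bound is 0.49, for TBK1 S172 with IL-32 against unstimulated cells.

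The authors' deposited table puts the peptides on another scale. Set against the spot intensities, each deposited value was the mean of foreground minus background over 3 spots divided by 1 constant per array, which was the 80th percentile of that quantity over the 300 peptides, with a floor at 0.01. In these units TBK1 S172 stood at 1.33 and 1.34 on unstimulated arrays, 1.31 and 1.93 with IL-17 and 1.52 and 1.55 with IL-32. The highest mean on this scale was that of IL-17, 1.62 ± 0.44, over 1.54 ± 0.02 for IL-32 and 1.34 ± 0.01 for unstimulated cells (SD, n = 2), whereas IL-32 was highest on the normalized scale. Both IL-32 arrays were above both unstimulated arrays, by 1.14-fold in replicate 1 and 1.15-fold in replicate 2. Of 199 peptides above the floor on these 4 arrays, 14 (7.04%) stood apart as higher and 28 (14.1%) as lower. The other 3 bright peptides overlapped between IL-32 and unstimulated cells. All 4 overlapped between IL-17 and unstimulated cells, where 20 of 189 peptides (10.6%) were apart as higher and 13 (6.88%) as lower, and between the cytokines, where 12 of 190 (6.32%) were apart as higher with IL-32 and 28 (14.7%) as lower.

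Before scaling, foreground minus background averaged 18982 and 17210 on unstimulated arrays, 15247 and 18328 on IL-32 arrays and 12232 and 15687 on IL-17 arrays, and the unstimulated and IL-32 arrays overlapped. The constants were 14290 and 12800 for unstimulated, 10040 and 11810 for IL-32 and 9354 and 8135 for IL-17 arrays, and the whole array differed too: without normalization the median log2 difference of all peptides was -0.24 for IL-32 against unstimulated cells, and TBK1 at -0.019, which is 0.22 above that median. As a plain ratio, the mean foreground over background of TBK1 was 2.05 and 2.56 in unstimulated cells, 2.25 and 1.78 with IL-32 and 1.94 and 1.66 with IL-17. This ratio is not scaled between arrays, whose medians over all spots were 1.32 and 1.34, 1.27 and 1.26, and 1.31 and 1.16 in the same order. The log2 difference for IL-32 was -0.074 with quantile-normalized ratios in place of normexp, and -0.12 when the 3 spots were summarized by their median.

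For IRF-3 the authors' units gave wide gaps between the replicates of the cytokine groups. S396/8 was at 0.788 and 0.772 in unstimulated cells, 1.04 and 0.542 with IL-17 and 0.844 and 0.694 with IL-32. With IL-17 this is 1.32 times the unstimulated array in replicate 1 and 0.703 times in replicate 2. S402/5 was at 0.823 and 0.954, then 0.987 and 0.665 with IL-17 and 0.852 and 0.676 with IL-32, or 1.20 and 0.698 times unstimulated for IL-17 and 1.03 and 0.709 times for IL-32. The IL-17 array of replicate 2 was the array with the lowest ratio of foreground to background over all peptides, and its 3 spots for S396/8 had ratios of 1.13, 1.12 and 1.21. The part of that array's signal in the low values was not tested. IRF-5 S437 was at 1.25 and 1.12, 1.31 and 1.07, and 1.00 and 1.16 in the order unstimulated, IL-17 and IL-32, with all groups overlapping.

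**Figure D4:**
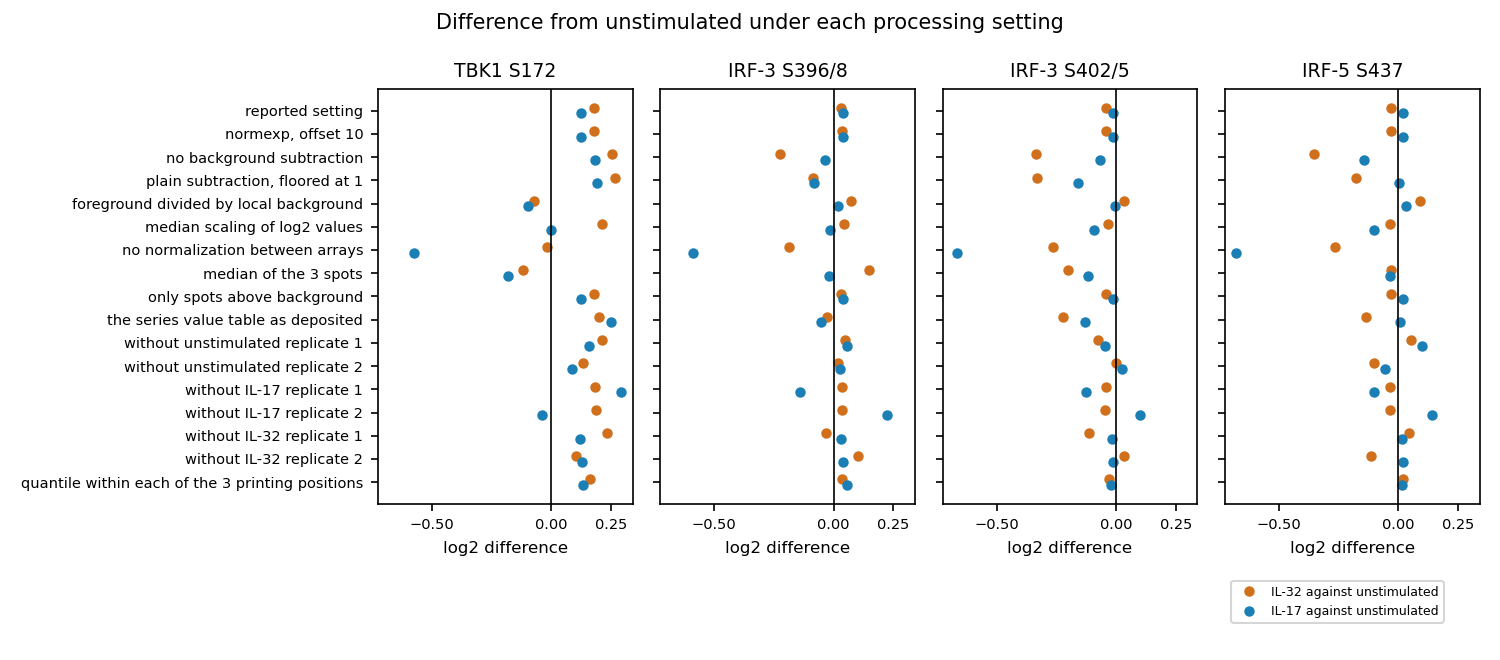
Log2 difference from unstimulated cells of the 4 bright peptides under the reported setting and 16 others. Without normalization between arrays all peptides shift together, and leaving out spots below background gives the reported values again. Over the other 14 settings, some of which nearly repeat the reported value, TBK1 S172 with IL-32 was above 0 in 12. Each of the 8 differences shown changed sign in at least 1 of them.

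The sign of the differences varied with the processing for every peptide. Over 14 settings that can change a difference between peptides, TBK1 S172 with IL-32 was above 0 in 12 and below in 2, and with IL-17 above in 10 and below in 4. The IRF-3 peptide at S402/5 was below 0 in 12 of 14 settings with each cytokine. Its neighbour at S396/8 was above 0 in 10 of 14 for IL-32 and in 8 of 14 for IL-17. IRF-5 S437 was below 0 in 10 of 14 for IL-32 and above in 9 of 14 for IL-17. None of the 4 passed the adjusted threshold in these settings. The settings are not independent of each other, and some hardly move a difference. For TBK1 S172 with IL-32, leaving out an IL-17 array gave 0.184 and 0.186, and a normexp offset of 10 gave 0.179, against 0.178 as reported. The counts are therefore a description and do not measure agreement over processing. These counts leave out the setting without normalization between arrays, in which the median of all peptides lay at -0.24 for IL-32 and -0.59 for IL-17. Relative to that median, TBK1 S172 stood at 0.22 with IL-32 and 0.01 with IL-17, IRF-3 S396/8 at 0.05 and -0.0016, IRF-3 S402/5 at -0.03 and -0.08, and IRF-5 S437 at -0.03 and -0.09. With IL-17, 293 of 298 peptides passed as lower in that setting, these 4 among them.

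Other proteins of the interferon pathway gave a background for these values. From a list of adaptors, kinases and receptors around TBK1 and the interferon receptor, 20 further peptides of 11 proteins were on the array. Of these, 13 were above local background on all 6 arrays and 7 on none. The dark ones included both peptides of TAK1, a kinase of Toll-like receptor signalling, and both of IKK-gamma, the scaffold of the IKK complex. With IL-32, 6 of the 13 were higher and 7 lower, with a median of -0.022, beside 103 of 213 higher (48.4%) and a median of -0.0048 over all peptides with a fold. With IL-17, 5 were higher and 8 lower, with a median of -0.013, beside 108 of 214 (50.5%) and 0.00068. None passed the adjusted threshold in either direction.

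Upstream of the transcription factors, IKK-beta, the kinase that acts on IκB and on IRF-5, led the list at Y199. Its normalized signal was 12.02 and 11.80 in unstimulated cells, 11.93 and 11.88 with IL-17 and 12.12 and 12.33 with IL-32, and the IL-32 arrays stood above the other 4. The log2 difference was 0.32 ± 0.11 for IL-32 (95% interval 0.04 to 0.60) and -0.0058 ± 0.11 for IL-17 (SE, n = 2; limma adjusted p = 0.996 and 0.997). Y199 was named for its small p in these data. The other IKK-beta peptide, Y188, also above background on all arrays, gave -0.03 ± 0.16 with IL-32 and -0.01 ± 0.16 with IL-17. Of the 13 list peptides, 1 stood apart from unstimulated cells as higher with IL-32 and 1 as lower. Over all 213 peptides with a fold, 24 did so as higher and 21 as lower. IRAK1, a kinase recruited by MyD88, gave 0.18 ± 0.12 at T209 with IL-17 and 0.03 ± 0.12 with IL-32. At T387 it gave -0.13 ± 0.17 with IL-32 and -0.03 ± 0.17 with IL-17.

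In the arm that carries the interferon signal from its receptor, STAT2, a transcription factor that the type I interferon receptor activates, gave -0.14 ± 0.11 at Y690 with IL-32 and -0.10 ± 0.11 with IL-17 (SE, n = 2). IFNAR1, a chain of that receptor, gave -0.05 ± 0.20 at Y466 with IL-32 and -0.14 ± 0.20 with IL-17. Its signs differed between replicates 1 and 2, at 0.39 and -0.495 with IL-32 and 0.12 and -0.41 with IL-17. The other IFNAR1 peptide, S535, also above background on all arrays, gave 0.04 ± 0.10 with IL-32 and 0.06 ± 0.10 with IL-17. None of these peptides passed the threshold in either comparison (limma, adjusted p = 0.996 and 0.997 in that order).

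**Figure D5:**
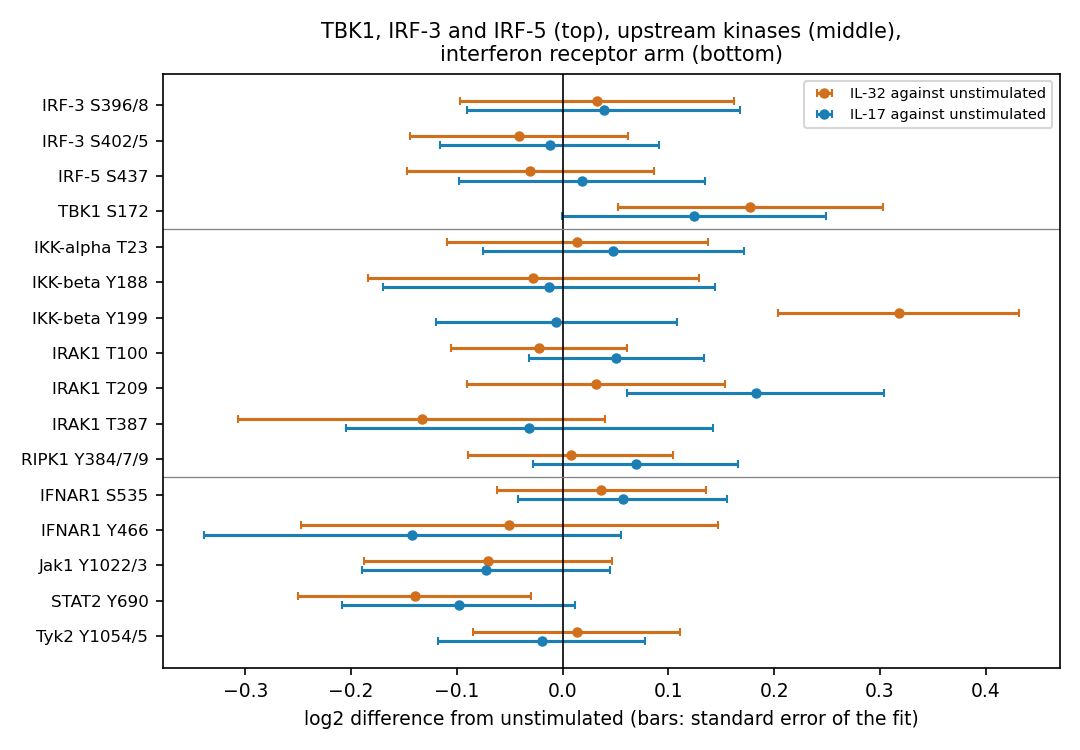
Log2 differences from unstimulated cells (bars: standard error of the fit, n = 2 arrays per group) of the 4 bright peptides of TBK1, IRF-3 and IRF-5 and of 12 further peptides of the interferon pathway above background on all arrays. IKK-beta Y199 with IL-32 (0.32) lies farthest from 0 among the peptides shown, and none of them passed the adjusted threshold.

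Across the 6 arrays, the peptides most like each of the 4 were sought among 187 others that were above background on every array, by Pearson's r of normalized signal. The points share their arrays and their normalization, so r is a description. TBK1 S172 was most like PKR at T451, the activation loop of a kinase switched on by double-stranded RNA (r = 0.89), BCAP at Y17, from a PI3-kinase adaptor (0.88), and ERK3 at S189, from an atypical MAP kinase (0.88). PKR T451 stood at 11.70 and 11.71 in unstimulated cells, 11.66 and 11.79 with IL-17 and 11.78 and 11.84 with IL-32, a likeness for which it was chosen. The IRF-3 peptides had each other among their 3 nearest (r = 0.87), beside VEGFR-2 at Y1214 for both (0.98 for S396/8 and 0.87 for S402/5), FGFR1 at Y463 for S396/8 (0.91) and the CSF-1 receptor at Y561 for S402/5 (0.89). IRF-5 S437 was most like HIF2A at T840 (0.97), IRAK1 at T387 (0.90) and Jak3 at Y981 (0.89).

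Among the 4 bright peptides themselves, also as a description over the 6 arrays, r was -0.90 between TBK1 S172 and IRF-3 S402/5, -0.70 between TBK1 S172 and IRF-3 S396/8 and -0.35 between TBK1 S172 and IRF-5 S437. The IL-17 array of replicate 2 had the highest TBK1 and the lowest IRF-3 values, and the IL-17 and unstimulated arrays of replicate 1 had the highest IRF-5 values. The part of single arrays in these r was not tested. IRF-5 S437 had r = 0.53 with IRF-3 S396/8 and 0.24 with IRF-3 S402/5.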

How the data were processed

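The deposited array files hold spot intensities per the file headers (mean foreground and mean local background), neither subtracted nor normalized. For scanner and image software, the sources used here give nothing. The authors' value table holds a linear signal, whose scale was found by comparison with the spots: the ratio of mean foreground minus background to the deposited value was 1 constant per array, to a relative deviation of at most 3.3e-07, for every value over 0.01. Its column medians ran from 0.466 to 0.553.

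From the intensities, normexp (limma 3.58.1, R 4.3.3, offset 50) was run on 900 spots per array. The 2 non-human peptides were dropped, log2 values were quantile-normalized, and 3 spots were averaged. The 298 human peptides were fitted in 1 model over 6 arrays (lmFit, eBayes, two-sided, Benjamini-Hochberg over peptides, threshold 0.05; 3 residual and 2.8 prior degrees of freedom; median SE of a difference 0.10). Fits were tested on simulated data with planted changes in signal far larger than the differences given here, so that test does not bear on small differences. A peptide is above background on an array where its mean foreground exceeds its mean background, and has a fold where this holds on at least 1 array of each group. The correlation of replicate differences between groups was 0.18, 0.022 and 0.39. With no cutoff set, these values do not settle whether replicate numbers pair the arrays. The sample titles state no pairing, and the arrays were not taken as pairs. A fit with the replicate number as a block is given as an alternative. The pathway list's 14 genes all matched a RefSeq table of GRCh38.p14, used for names only.

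The peptides of TBK1, IRF-3 and IRF-5, the pathway list and the tests were chosen with earlier results of these data known. Other peptides were named by rule. From the list, these were up to 6 with the smallest p against unstimulated cells among those above background on all arrays. For each bright member, they were the 3 with the highest r. The dark list peptides, named for a count, IKK-beta Y188, named beside Y199, and IFNAR1 S535, named beside Y466, fall outside this rule. Alternatives changed the background correction, normalization, spot summary, filter, fit, replicate block, source table and arrays. Of the list peptides, 1 protein's values are not reported here singly; it remains in the counts and medians.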

Additional observations from a re-analysis of the deposited data

How the results depend on the processing

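For TBK1, IRF-3 and IRF-5, 0 of the 12 differences kept its sign in all 14 settings that can change it (without normalization, where all peptides shift, is not counted), and 0 passed the adjusted threshold in them; the cause of a change in sign was not tested unless stated. Log2 differences that changed sign follow by setting. Without normalization, where the median peptide lay at -0.24 (IL-32), -0.59 (IL-17) and 0.36 (direct comparison), they were -0.19 (IRF-3 S396/8) and -0.019 (TBK1) for IL-32, -0.59 (S396/8), -0.68 (IRF-5) and -0.58 (TBK1) for IL-17, and 0.40 (S396/8), 0.40 (S402/5) and 0.41 (IRF-5) in the direct comparison. There 293 peptides passed for IL-17, all lower. Of the 5 members, 4 met the study's criteria for IL-17 (IRF-3 S396/8, S402/5 and the dark S385/6, and IRF-5, but not TBK1). The median peptide itself, at -0.5869, was past the 1.5-fold size there (log2 0.585). The share of all peptides at these criteria was not counted, so the count of 4 does not set the members apart. For IL-32 against IL-17, 4 peptides passed (FLT3 Y589/91, IKK-beta Y199, Pyk2 Y402 and RAC1 S71). Of the 13 list peptides 1, 0 and 13 were higher in the 3 comparisons. The shift of the whole array is part of these values, and TBK1 lay 0.22 above the median peptide for IL-32. With foreground over background they were 0.033 (S402/5), 0.090 (IRF-5) and -0.074 (TBK1) for IL-32, -0.096 (TBK1) for IL-17, and 0.054 (S396/8), 0.038 (S402/5) and 0.057 (IRF-5) directly, and 8 list peptides in place of 5 were higher with IL-32 than with IL-17. With the median of the spots they were -0.12 (TBK1) for IL-32, -0.020 (S396/8), -0.033 (IRF-5) and -0.18 (TBK1) for IL-17, and 0.17 (S396/8) and 0.0020 (IRF-5) directly. With median scaling they were -0.014 (S396/8), -0.10 (IRF-5) and -0.0020 (TBK1) for IL-17, and 0.059 (S396/8), 0.060 (S402/5) and 0.069 (IRF-5) directly. In the authors' deposited values IRF-3 S396/8 gave -0.028, -0.053 and 0.025 in the 3 comparisons and TBK1 -0.049 directly. Without background subtraction they were -0.23 (S396/8) for IL-32 and -0.036 (S396/8) and -0.14 (IRF-5) for IL-17; with plain subtraction floored at 1, S396/8 gave -0.085 and -0.084 against unstimulated cells, and 1 peptide passed for IL-32 against IL-17 (IL-10R-A Y496). With quantiles within each of the 3 printing positions, chosen after the data were examined, IRF-5 gave 0.021 for IL-32 and 0.0075 directly. Peptides named here for a count were picked after their values were seen.

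Leaving out 1 array at a time, the lone array left in a group was assumed to vary like the others. The difference for IL-32 then ran from 0.10 to 0.23 for TBK1, -0.031 to 0.10 for S396/8, -0.11 to 0.033 for S402/5 and -0.11 to 0.053 for IRF-5. For IL-17 it ran from -0.037 (without IL-17 replicate 2) to 0.29 (without IL-17 replicate 1) for TBK1, -0.14 to 0.22 for S396/8, -0.12 to 0.099 for S402/5 and -0.10 to 0.14 for IRF-5, and 4 to 8 of the list peptides were higher, 8 without unstimulated replicate 1. Directly it ran from -0.11 to 0.22 for TBK1, -0.19 to 0.17 for S396/8, -0.14 to 0.083 for S402/5 and -0.18 to 0.071 for IRF-5. With the replicate number as a block, 0 peptides passed in each comparison (8, 4 and 10 at an unadjusted p under 0.05), and the differences are the same by construction; the replicate numbers were not taken to pair the arrays. Signal over background limits what can be seen: IRF-3 S385/6 has no fold at all.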
